A study of Mus musculus with 12 samples.

Results

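RNA sequencing of aneurysms of the mouse proximal thoracic aorta was examined for 8 genes that mark macrophages in general or monocytes newly arrived from blood. They are Adgre1, Cd68, Aif1, Lyz2 and Ms4a7, which mark macrophages; Spi1, the transcription factor gene behind the myeloid lineage; and Ly6c2 and Plac8, which mark inflammatory monocytes. They were taken by gene name, and all 8 of 8 were among the 30130 genes listed and the 21415 genes tested. The study compared 7 libraries of chronic proximal thoracic aortic aneurysm (cPTAA, libraries 2, 3, 4, 6, 7, 9 and 12) with 5 libraries of sham-operated proximal thoracic aorta (libraries 1, 5, 8, 10 and 11). The cPTAA mice had elastase (spelled "elatase" in the labels), a protease that cuts elastic fibres, placed around the aorta and also received BAPN, which blocks the lysyl oxidases that cross-link elastin and collagen. The sham mice had sham surgery and drank normal water. All mice were male and of the strain given as C56BL/6J; the sources used here do not give their age, the doses or the time of harvest. Elastase and BAPN were given only together, so neither can be told apart from the other, and the labels do not say whether each library is 1 animal, so the p-values cover no more than the spread from library to library.

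Macrophages in an artery wall come from cells that settled there early in life and from monocytes that leave the blood. In mice, inflammatory monocytes carry the surface protein Ly6C and the chemokine receptor CCR2, enter injured tissue along a gradient of CCL2, and lose Ly6C as they mature while F4/80 (the product of Adgre1), CD68 and other macrophage proteins build up. PU.1, the product of Spi1, binds the promoters and enhancers of many of these genes. Macrophages are known in aortic aneurysm for making proteases that degrade the wall.

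Depth was 14.1 to 17.5 M reads per library, and the values below are normalised read counts, that is, reads multiplied by 1 factor per library. Myh11, the heavy chain of smooth muscle myosin, was abundant in both groups, at 34217 ± 18171 in cPTAA (SD, n = 7) and 74348 ± 9771 in sham (SD, n = 5). Other smooth muscle markers ranged widely, from Acta2 (122701 ± 51075 and 141220 ± 23075) to Tagln (710 ± 441 and 546 ± 92.1) and Myocd (227 ± 124 and 430 ± 86.6). Several libraries stood apart. In cPTAA 6, 7 and 9, the summed level of 10 cardiomyocyte markers was 25611, 29759 and 178385, against 1434 to 1958 in the other cPTAA libraries and 1824 to 7302 in sham. In sham 8 and sham 11, the sum of 12 airway epithelium markers was 354597 and 24296, against 9.49 to 3887 in the others. In cPTAA 6 and 9, genes with transcripts over 4000 bases were low against genes with transcripts of at most 1500 bases (log2 differences of -0.78 and -1.04 from the group mean), while cPTAA 12 deviated the other way (0.71) and all others lay between -0.13 and 0.36. All 10 brown adipocyte markers fell in cPTAA, and their mean log2 level did not overlap between the groups (8.31 ± 1.13 in cPTAA, SD, n = 7; 11.1 ± 0.624 in sham, SD, n = 5). In whole tissue, more cells of a type and more RNA per cell cannot be told apart.

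Promoter sequences of RefSeq (build GRCm38.p6, 250 bases before to 50 after each listed start site) were found for 6 of the 8 genes; Adgre1 and Spi1 had none in the table. The files' values carry no coordinates. Windows were searched on both strands for GAGGAA, the core of the box bound by PU.1, for its longer form GAGGAAGT, which contains it, for TTGCNNAA, a C/EBP motif, and for TGANTCA, an AP-1 motif. GAGGAA was found in 28.3% of 32851 mouse promoter windows of the same length, GAGGAAGT in 3.2%, TTGCNNAA in 10.8% and TGANTCA in 7.81%. Of the 6 genes, 5 had GAGGAA in at least 1 window and Lyz2 had none. Some genes have several listed start sites whose windows can overlap; counted per window, as in the percentages above, GAGGAA was in 6 of 9. The 250 upstream bases of 6 genes are shown, 5′ to 3′, with GAGGAA or GAGGAAGT, or their reverse complement, in capitals. Ly6c2 (chr15:75111972-75112221, minus strand) and Ly6c1 (chr15:75048838-75049087, minus strand) are shown as near-copies, of which Ly6c2 rose and Ly6c1 did not pass the test. Lyz2 (chr10:117282273-117282522, minus strand) and Lyz1 (chr10:117292869-117293118, minus strand) are a second pair of near-copies, of which both rose. Cd68 (chr11:69666171-69666420, minus strand) and Plac8 (chr5:100572206-100572455, minus strand) are shown as a macrophage gene of narrower and a monocyte gene of wider range among the aneurysms.
Ly6c2: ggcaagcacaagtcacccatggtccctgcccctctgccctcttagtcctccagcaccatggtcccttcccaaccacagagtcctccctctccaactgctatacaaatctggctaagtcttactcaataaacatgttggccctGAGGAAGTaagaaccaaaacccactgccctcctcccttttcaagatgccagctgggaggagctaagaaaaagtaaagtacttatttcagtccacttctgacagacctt
Ly6c1: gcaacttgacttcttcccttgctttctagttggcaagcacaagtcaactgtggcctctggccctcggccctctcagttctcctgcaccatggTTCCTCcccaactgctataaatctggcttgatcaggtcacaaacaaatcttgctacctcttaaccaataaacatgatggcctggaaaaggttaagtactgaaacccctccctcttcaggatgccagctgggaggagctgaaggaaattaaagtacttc
Lyz2: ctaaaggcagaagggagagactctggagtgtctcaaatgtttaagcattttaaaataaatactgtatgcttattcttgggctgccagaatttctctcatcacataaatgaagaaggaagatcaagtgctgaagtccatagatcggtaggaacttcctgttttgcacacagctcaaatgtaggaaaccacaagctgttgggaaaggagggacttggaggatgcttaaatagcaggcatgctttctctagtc
Lyz1: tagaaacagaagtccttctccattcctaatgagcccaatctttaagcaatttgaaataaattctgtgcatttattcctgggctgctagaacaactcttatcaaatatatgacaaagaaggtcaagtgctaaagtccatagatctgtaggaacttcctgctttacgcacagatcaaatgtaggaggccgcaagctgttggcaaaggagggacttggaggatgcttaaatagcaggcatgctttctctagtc
Cd68: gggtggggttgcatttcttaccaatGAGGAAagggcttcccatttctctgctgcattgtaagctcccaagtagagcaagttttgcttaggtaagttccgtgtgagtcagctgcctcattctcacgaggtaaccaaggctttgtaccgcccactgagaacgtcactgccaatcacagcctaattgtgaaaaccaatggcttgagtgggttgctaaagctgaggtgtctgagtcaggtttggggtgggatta
Plac8: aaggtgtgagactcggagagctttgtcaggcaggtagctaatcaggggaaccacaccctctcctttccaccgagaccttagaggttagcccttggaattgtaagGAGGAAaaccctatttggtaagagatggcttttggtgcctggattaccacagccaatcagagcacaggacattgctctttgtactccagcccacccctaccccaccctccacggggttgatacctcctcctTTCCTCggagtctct
Ly6c2 had GAGGAAGT at -108 to -101 and again at 27 to 34, counting the first transcribed base as 1. The first listed window of Ly6c1 had GAGGAA alone, on the reverse strand at -158 to -153. Its second listed window had GAGGAAGT at -127 to -120 and GAGGAA on the reverse strand at 14 to 19. The first listed windows of the pair were identical at 73.76% of 282 aligned positions. Lyz1 and Lyz2 were closer, at 88.3% of 265 positions. Cd68 held GAGGAA at -225 to -220 and, on the reverse strand, at 30 to 35, TTGCNNAA at -43 to -36, and TGANTCA at -149 to -143 and -24 to -18. Plac8 held GAGGAA at -146 to -141 and, on the reverse strand, at -15 to -10. A match is a description of the letters and not a binding site.

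All 8 genes rose in cPTAA, where 12.9% of all tested genes rose (2754 of 21415; limma, Benjamini-Hochberg adjusted p under 0.05). The median log2 fold change of the 8 was 2.96, against -0.05 over all tested genes. Of the 8, 6 rose by more than 2-fold beyond error (limma treat), the exceptions being Lyz2 and Plac8; 2.91% of all tested genes did. For 6 of 8 the groups did not overlap, again all but Lyz2 and Plac8, against 8.02% of all genes with every cPTAA library above every sham library. Without cPTAA 6, 7 and 9 and sham 8 all 8 rose as well. In that setting 6569 genes were called in all, 53.0% of them higher. Over 25 alternatives, Ly6c2 passed the 2-fold test in 23, Lyz2 in 3, Plac8 in 0 and each of the others in 24. Ly6c2 missed it with voom (limma treat adjusted p = 0.0856). The brown adipocyte score differs between the groups without overlap. With it added to the model, 6 of 8 genes rose, against 347 higher and 127 lower among all 21415 tested genes. In that model 0 of 8 and 0 genes in all passed the 2-fold test (limma treat). At an unadjusted p under 0.05 in that test, 6 of 8 passed, against 541 higher and 550 lower of the 21415.

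**Figure D1:**
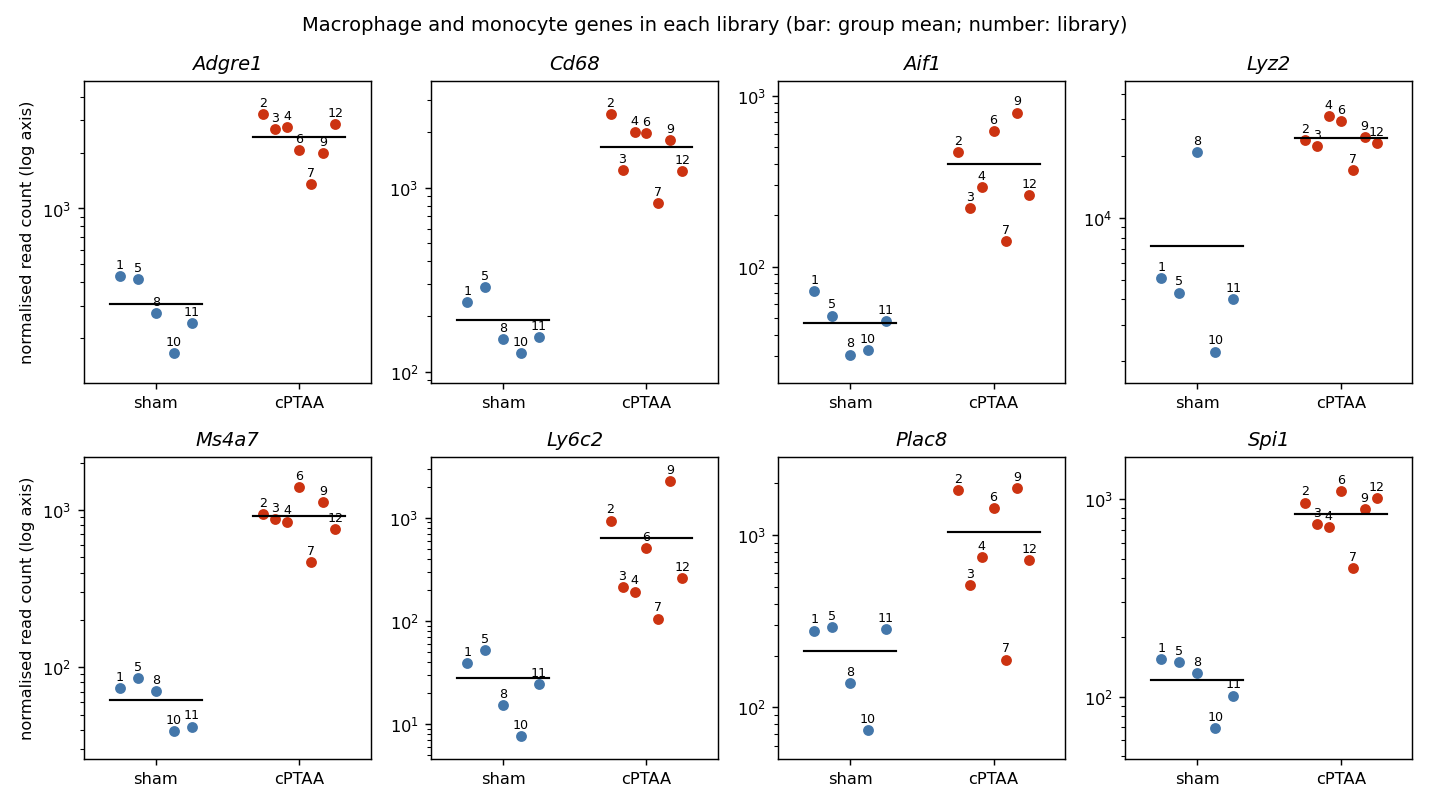
Normalised read count (log axis) of each of the 8 genes in the 5 sham (blue) and 7 cPTAA (red) libraries; each point is a library with its number and the bar is the group mean. For Adgre1, Cd68, Aif1, Ms4a7, Ly6c2 and Spi1 the groups do not overlap, while sham 8 reaches the cPTAA range for Lyz2 and cPTAA 7 falls into the sham range for Plac8.

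Adgre1 encodes F4/80, the adhesion receptor long used to stain mouse macrophages. It ran from 1357 through a median of 2681 to 3221 in cPTAA, and stood at 431, 418, 272, 166 and 241 in sham 1, 5, 8, 10 and 11. The groups were far apart, with the lowest aneurysm library above the highest sham library. The means were 2413 ± 637 (SD, n = 7) and 306 ± 115 (SD, n = 5), an 8.09-fold rise (log2 fold change 3.02 ± 0.25 SE, limma adjusted p = 3.89e-06).

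Cd68 encodes a heavily glycosylated protein of macrophage endosomes and lysosomes. Its level was 828 at the lowest, 1807 at the median and 2513 at the highest in cPTAA, and 238, 289, 151, 126 and 155 in the sham libraries in the same order. It rose 8.52-fold, from 192 ± 69.0 (SD, n = 5) to 1657 ± 581 (SD, n = 7; log2 fold change 3.09 ± 0.27 SE, limma adjusted p = 4.95e-06). Adgre1 and Cd68 were highest in the same library, cPTAA 2, and lowest in the same library, cPTAA 7.

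Aif1 encodes Iba1, a calcium-binding protein that bundles actin in macrophages and microglia. In cPTAA it ran from 141 through 293 to 795, and in sham it was 71.7, 51.6, 30.6, 32.6 and 47.7. The aneurysm libraries were spread more widely than for Adgre1, with cPTAA 9, 6 and 2 at 795, 617 and 469 and the other 4 at 293 or below. The rise was 7.53-fold (399.6 ± 237, SD, n = 7, against 46.8 ± 16.7, SD, n = 5; log2 fold change 2.91 ± 0.38 SE, limma adjusted p = 8.04e-05). Without cPTAA 6 and 9 the cPTAA mean was 277 ± 121 (SD, n = 5) and the log2 fold change 2.50.

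Ms4a7 encodes a 4-span membrane protein found in macrophages and used to set infiltrating and border-associated macrophages apart from microglia. It ran from 465 through 880 to 1403 in cPTAA, and was 73.8, 85.7, 70.3, 39.1 and 41.9 in sham. This was the most separated of the 8 genes, with the lowest aneurysm library far above the highest sham library. Ms4a7 rose 14.5-fold, from 62.2 ± 20.6 (SD, n = 5) to 916 ± 294 (SD, n = 7; log2 fold change 3.86 ± 0.26 SE, limma adjusted p = 2.22e-06).

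Lyz2 encodes lysozyme M, the secreted enzyme that breaks bacterial cell walls, made by macrophages, neutrophils and alveolar type II cells; its promoter drives the widely used LysM-Cre. It was the most abundant of the 8, at 17027, 23819 and 31085 for the lowest, median and highest cPTAA library. In sham it was 5095, 4320, 20798, 2234 and 4004. Sham 8 thus lay inside the cPTAA range and the other 4 sham libraries well below it. With all libraries the means were 24464 ± 4660 (SD, n = 7) and 7290 ± 7623 (SD, n = 5), a log2 fold change of 2.19 ± 0.40 SE (limma adjusted p = 0.00112; adjusted p for more than 2-fold 0.113). Without sham 8 the sham mean was 3913 ± 1210 (SD, n = 4), the log2 fold change was 2.68 and Lyz2 passed the 2-fold test as well (limma adjusted p = 1.02e-05 against no change, within a range of 1.02e-05 to 0.273 over 25 alternatives, and 0.000876 against 2-fold).

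None of the other 7 genes was highest in sham 8 among the sham libraries. There, Adgre1 stood at 272, between the 166 and 431 of the other sham libraries, and Aif1, at 30.6, was the lowest of the 5. The airway list was high in sham 8: Scgb1a1, the secretoglobin of airway club cells, was 40496 there, 3550 in sham 11, 7.60 in sham 10 and 0 in sham 1 and 5, and between 0 and 50.8 in cPTAA. In sham 11, with the second-highest airway sum, Lyz2 was 4004. The part of airway or lung tissue in the Lyz2 level of sham 8 was not tested.

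**Figure D2:**
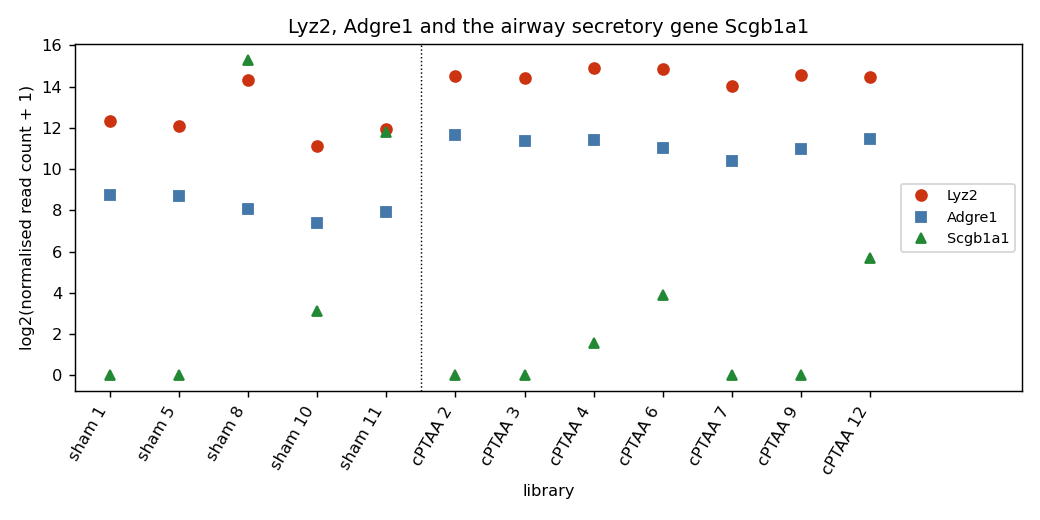
Level of Lyz2 (red), Adgre1 (blue) and the airway gene Scgb1a1 (green) in each of the 12 libraries, as log2(normalised read count + 1), with sham to the left and cPTAA to the right of the dotted line. In sham 8, Lyz2 (20798) is at the height of the aneurysms while Adgre1 (272) stays with sham and Scgb1a1 (40496) is highest.

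Lyz1, the second lysozyme gene and lysozyme P of intestinal Paneth cells, lies beside Lyz2, and their longest transcripts were identical at 95.81% of 1264 aligned positions, with an identical stretch of 118 bases. The sources used here do not say how reads that match both genes were counted, so the split between them is uncertain. Lyz1 was listed at 462 ± 172 in cPTAA (SD, n = 7) and 178 ± 69.9 in sham (SD, n = 5), and it rose less than Lyz2 (log2 fold change 1.36 ± 0.34 SE, limma adjusted p = 0.00892; the difference from Lyz2 was not tested). Sham 8 had 214 of Lyz1, inside the range of the other sham libraries (80.3 to 269).

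The 16 other macrophage genes moved the same way: 15 rose, 1 did not pass, and their median log2 fold change was 2.93 against -0.05 over all tested genes. Those with the smallest p were Clec4n, which encodes the fungal receptor dectin-2 (298 ± 46.4 against 17.9 ± 12.04; SD, n = 7 and 5; log2 fold change 4.17), Ctss, an elastin-degrading cysteine protease (5589 ± 1651 against 532 ± 256; 3.45), and C3ar1, the receptor for complement C3a (1341 ± 422 against 151 ± 64.9; 3.18). The single gene that did not pass was Mertk, a receptor for engulfing dead cells that is also used to define mature tissue macrophages, at 932 ± 263 and 982 ± 175 (log2 fold change -0.12 ± 0.22 SE, limma adjusted p = 0.743). All 12 pan-leukocyte genes rose, with a median of 2.95; among them Ptprc, which encodes CD45, went from 268 ± 152 (SD, n = 5) to 1987 ± 650 (SD, n = 7; log2 fold change 3.01 ± 0.33 SE, limma adjusted p = 2.24e-05).

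Spi1 encodes PU.1, without which macrophages and B cells do not form. Its level in cPTAA was 446, 894 and 1098 at the lowest, median and highest, and in sham 155, 150, 131, 69.4 and 101. No aneurysm library came near the sham libraries. The rise was 6.90-fold (840 ± 220, SD, n = 7, against 121 ± 35.9, SD, n = 5; log2 fold change 2.79 ± 0.24 SE, limma adjusted p = 4.61e-06).

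Of 15 other transcription factor genes of the myeloid lineage, 8 rose, 2 fell and 5 did not pass, with a median log2 fold change of 1.37; 11.1% of all genes fell. The smallest p were those of Irf5, a factor of inflammatory cytokine genes (667 ± 166 against 119 ± 20.9; SD, n = 7 and 5; log2 fold change 2.44), Irf8, which partners PU.1 in monocytes and dendritic cells (915 ± 212 against 133 ± 63.4; 2.89), and Ikzf1, the lymphoid and myeloid factor Ikaros (376 ± 166 against 58.1 ± 22.3; 2.66). The genes that fell were Cebpa (2445 ± 910 against 5129 ± 663; log2 fold change -1.14, limma adjusted p = 0.00189) and Nr1h3, the oxysterol receptor LXR alpha (636 ± 137 against 1084 ± 211; -0.77, limma adjusted p = 0.00403). Both are also expressed by adipocytes, whose markers fell in these libraries (5 of 8 white and 10 of 10 brown adipocyte markers); the part of adipocytes in the falls was not tested. With brown adipocyte score in the model 2 of the 15 rose and 0 fell. That model called 127 of 21415 genes lower, against 2374 without the score, and 347 higher, against 2754.

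Ly6c2 encodes the Ly6C protein of inflammatory monocytes. Its level spanned 105 to 2263 in cPTAA with a median of 258, and in sham it was 39.0, 51.6, 15.3, 7.60 and 24.4.
These rest on as few as 7 reads, in sham 10, and as many as 2308, in cPTAA 9. The groups did not overlap, but the aneurysm libraries were spread more widely than for the other 7 genes, with cPTAA 9 alone at 2263, cPTAA 2 at 941, cPTAA 6 at 511 and the other 4 between 105 and 258. The mean rose from 27.6 ± 17.8 (SD, n = 5) to 640 ± 770 (SD, n = 7), a log2 fold change of 4.02 ± 0.67 SE (limma adjusted p = 0.000511). Without cPTAA 6 and 9 the mean was 342 ± 339 (SD, n = 5) and the log2 fold change 3.42.

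Ly6c1, a neighbour on chromosome 15 that is expressed by endothelial cells as well as leukocytes, was listed at 2471 ± 994 in cPTAA (SD, n = 7) and 2579 ± 637 in sham (SD, n = 5) and did not pass the test (log2 fold change -0.12 ± 0.25 SE, limma adjusted p = 0.776). The longest transcripts of the pair were identical at 97.57% of 822 aligned positions, with an identical stretch of 188 bases, so reads from such stretches fit both and the split between the pair is uncertain. The ratio of Ly6c2 to Ly6c1 was 0.0706 to 0.535 in cPTAA and 0.00334 to 0.0194 in sham, without overlap.

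Plac8 encodes a small cysteine-rich protein of monocytes, neutrophils and some lymphocytes, and is a common marker of Ly6C-high monocytes in single-cell data. Its levels were 189, 743 and 1866 at the lowest, median and highest in cPTAA, and 279, 292, 139, 73.8 and 284 in sham. Here the groups overlapped through cPTAA 7, at 189, which lay below sham 1, 5 and 11. The mean rose from 214 ± 101 (SD, n = 5) to 1041 ± 665 (SD, n = 7), a log2 fold change of 2.12 ± 0.53 SE (limma adjusted p = 0.00865; adjusted p for more than 2-fold 0.374). Without cPTAA 6 and 9 it was 1.72, still past the threshold (limma adjusted p = 0.0291, within 1.52e-05 to 0.194 over 25 alternatives).

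Of 11 tested classical monocyte genes, 8 rose and 3 did not pass (median log2 fold change 2.75). The 3 with the smallest p were Ccr1, a receptor for inflammatory chemokines (328 ± 115 against 38.6 ± 23.2; SD, n = 7 and 5; log2 fold change 3.12), Ccr2, the CCL2 receptor (1281 ± 526 against 163 ± 83.7; 3.002), and Clec4e, the glycolipid receptor Mincle (79.2 ± 59.1 against 2.70 ± 1.84; 4.27). Hp, Ifitm6 and Vcan did not pass. Among 10 nonclassical monocyte genes 8 rose and 2 fell (median 2.25). Spn, which encodes CD43 (378 ± 113 against 30.2 ± 12.4; 3.65), Cx3cr1, the fractalkine receptor (912 ± 307 against 57.5 ± 50.2; 4.22), and Pou2f2 (130 ± 72.4 against 11.3 ± 6.79; 3.48) had the smallest p. The falls were in Nr4a1, an immediate early gene needed for nonclassical monocytes (460 ± 357 against 1524 ± 508; -1.99, limma adjusted p = 0.00472), and Cd36, a fatty acid transporter that adipocytes also express (8224 ± 2324 against 23061 ± 5991; -1.49, limma adjusted p = 0.000249). In the model with brown adipocyte score 2 classical genes rose, and 3 nonclassical genes rose and 0 fell. Over all 21415 genes that model called 347 higher and 127 lower.

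Ligands that draw in or sustain monocytes rose in 8 of 9 tested, with a median log2 fold change of 2.56. Cx3cl1, the ligand of CX3CR1, went from 202 ± 65.4 (SD, n = 5) to 1183 ± 248 (SD, n = 7; 2.56), Vcam1, which holds rolling monocytes, from 1176 ± 310 to 4668 ± 959 (1.996), and Ccl2, the ligand of CCR2, from 25.5 ± 10.4 to 489 ± 289 (4.06). Il34, an alternative ligand of the receptor of CSF1, did not pass (114 ± 42.5 against 74.7 ± 29.1; 0.64, limma adjusted p = 0.161).

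The 8 genes did not vary alike among the aneurysms. Over the 7 cPTAA libraries the SD of the log2 level was 1.52 for Ly6c2, 1.18 for Plac8 and 0.88 for Aif1, against a median of 0.38 over 12666 genes with a mean of at least 50. It was 0.55 for Cd68, 0.50 for Ms4a7, 0.44 for Spi1, 0.43 for Adgre1 and 0.28 for Lyz2. The highest library exceeded the lowest 21.5-fold for Ly6c2, 9.86-fold for Plac8 and 5.64-fold for Aif1, but 2.37-fold for Adgre1 and 1.83-fold for Lyz2. The libraries that held the top 3 values of Ly6c2, Plac8 and Aif1 were the same ones: cPTAA 2, 6 and 9. Ms4a7 also had its top 3 there, at 945, 1403 and 1124. Adgre1 was highest in cPTAA 2, 12 and 4 and Ptprc in cPTAA 12, 3 and 4.

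At the other end, cPTAA 7 was the lowest of the 7 for 8 of 8 genes, and also for the sums of the 12 pan-leukocyte genes (11033 against 18126 to 22461 in the others) and of the 16 other macrophage genes (17641 against 29843 to 43250). Among sham libraries, sham 10 was the lowest for 7 of 8 genes and sham 1 and 5 were among the top 3 for all 8. In sham, too, the pan-leukocyte sum was lowest in sham 10 (1514) and highest in sham 1 (3664).

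cPTAA 2, 6 and 9 also had the highest sums of 12 interferon response genes, at 25932, 21334 and 19940, against 5589 to 14835 in the other cPTAA libraries and 2392 to 11787 in sham; this list was chosen after the values were seen. Irf7, the interferon-induced factor that amplifies interferon production, was 6422, 5085 and 6680 in these 3 libraries and 725 to 2152 in the other 4. In cPTAA, 4 of the 12 rose against sham (Mx1, Oas1a, Oasl2 and Ifi44), a count that ran from 2 to 8 when single libraries were left out. In cPTAA 6 and 9 the long transcripts were low and cardiomyocyte markers high as well. In cPTAA 2 the length difference was 0.36 and the cardiomyocyte sum 1617. With the length difference of each library as a covariate the log2 fold changes were 3.79 for Ly6c2, 2.75 for Aif1 and 1.98 for Plac8. The part of interferon response, transcript length or cardiac tissue in the spread of these genes was not tested.

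**Figure D3:**
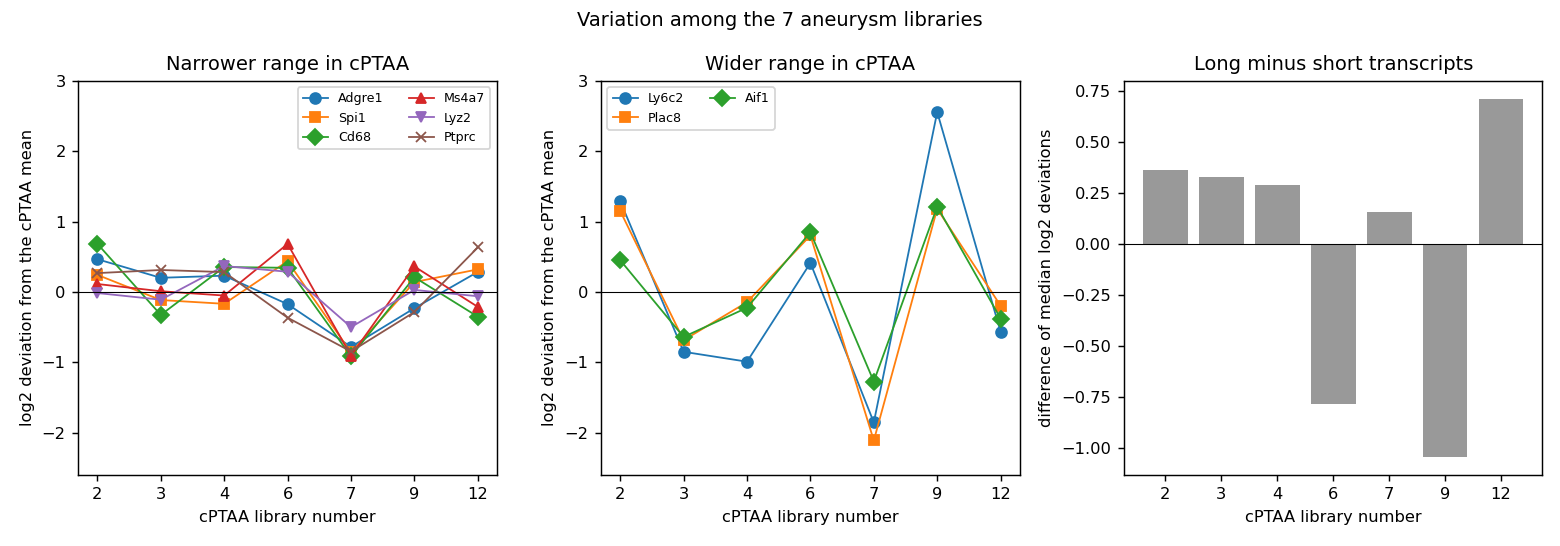
Left and middle, log2 deviation of each gene from its cPTAA mean in the 7 cPTAA libraries, for the genes of narrower range with Ptprc and for the genes of wider range; lines only join the points of 1 gene, since libraries have no order. Right, the log2 deviation of transcripts over 4000 bases minus that of transcripts of at most 1500 bases; Ly6c2, Plac8 and Aif1 are high in cPTAA 2, 6 and 9, of which 6 and 9 have negative bars (-0.78 and -1.04) and 2 a positive one (0.36).

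The levels were next set against Ptprc and against Adgre1 in the same library, to ask whether a gene rose by another amount than leukocyte or macrophage RNA as a whole. Relative to Ptprc 0 of the 8 genes passed (limma), while 94.2% of all genes were lower and 0.219% higher. The difference was 0.01 ± 0.40 SE on the log2 scale for Adgre1, 0.08 ± 0.42 for Cd68, -0.10 ± 0.49 for Aif1 and -0.22 ± 0.42 for Spi1. Ms4a7 (0.85 ± 0.44, limma adjusted p = 0.0587) and Ly6c2 (1.01 ± 0.55, limma adjusted p = 0.0741) had estimates above 0, and Plac8 (-0.89 ± 0.47, limma adjusted p = 0.0653) and Lyz2 (-0.82 ± 0.52, limma adjusted p = 0.126) below 0. The ratio of Lyz2 to Ptprc was 104 in sham 8, 9.38 to 24.7 in the other sham libraries and 7.88 to 20.1 in cPTAA. Without sham 8 the difference of Lyz2 was -0.27. At an unadjusted p under 0.05 the count was also 0 of 8, and errors of this size do not show that the rises were equal. Subtracting Ptprc put its own spread into every gene, and limma draws each gene's error toward the spread common to all genes. An error here can therefore exceed the gene's own spread. The ratio of Adgre1 to Ptprc ran from 0.970 to 1.42 in cPTAA and from 0.907 to 1.49 in sham. The count of 0 depends on this as well. Ms4a7, Ly6c2, Plac8 and Lyz2 moved with the setting: over 20 alternatives Ly6c2 was called higher than Ptprc in 7 and Ms4a7 in 3, and Plac8 was called lower in 6 and Lyz2 in 1. Set against the mean of the 12 pan-leukocyte genes in place of Ptprc alone, which is 1 of the 20, the differences of Ms4a7 (0.99 ± 0.29 SE, limma adjusted p = 0.00253, within a range of 0.00253 to 0.341) and Ly6c2 (1.15 ± 0.50 SE, limma adjusted p = 0.0323, within 0.00891 to 0.651) passed.

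Relative to Adgre1, Ms4a7 was higher in cPTAA, as were 0.257% of all genes, and Plac8 was lower, as were 94.7%. The ratio of Ms4a7 to Adgre1 was 0.293, 0.328, 0.308, 0.679, 0.343, 0.565 and 0.265 in cPTAA 2, 3, 4, 6, 7, 9 and 12, and 0.171, 0.205, 0.258, 0.235 and 0.174 in sham 1, 5, 8, 10 and 11. The groups did not overlap, by a narrow margin, and cPTAA 6 and 9 were highest. The log2 difference was 0.84 ± 0.33 SE (limma adjusted p = 0.0162). It did not pass without cPTAA 6 (limma adjusted p = 0.0528) or without cPTAA 6 and 9 (limma adjusted p = 0.152), within a range of 0.0117 to 0.167 over 19 alternatives, of which 15 kept it past the threshold. Long transcripts were low in cPTAA 6 and 9. The longest transcript had 3238 bases for Adgre1, 5074 for Ptprc and 1576 for Ms4a7, and from 822 (Ly6c2) to 2034 (Spi1) for the remaining genes. The length covariate was not run for relative changes, so the part of transcript length in them was not tested.

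The ratio of Plac8 to Adgre1 ran from 0.140 to 0.939 in cPTAA and was 0.648, 0.699, 0.509, 0.444 and 1.18 in sham. The groups overlapped: cPTAA 9, 6 and 2, at 0.939, 0.694 and 0.567, lay within the sham range, and cPTAA 7, 3, 12 and 4 lay below it. The log2 difference was -0.90 ± 0.41 SE (limma adjusted p = 0.0389), past the threshold in 11 of 19 alternatives (limma adjusted p from 0.00143 to 0.716). Ly6c2, the other monocyte gene, had a ratio of 1.14 to Adgre1 in cPTAA 9, 0.292 in cPTAA 2, 0.247 in cPTAA 6, and 0.0702 to 0.0909 in the other 4, within the range of sham (0.0458 to 0.124). Its difference of 1.003 ± 0.53 SE did not pass (limma adjusted p = 0.0724), nor did that of Lyz2 (-0.83 ± 0.44 SE, limma adjusted p = 0.0713). The ratio of Lyz2 to Adgre1 was 76.5 in sham 8, 10.3 to 16.6 in the other sham libraries and 7.39 to 14.2 in cPTAA. Without sham 8 the difference of Lyz2 was -0.31. Over the same 19 alternatives Ly6c2 was past the threshold in 5 (limma adjusted p from 0.0113 to 0.514) and Lyz2 in 3 (0.0387 to 0.465). The difference was 0.07 ± 0.30 SE for Cd68, -0.10 ± 0.41 for Aif1, -0.23 ± 0.30 for Spi1 and -0.01 ± 0.31 for Ccr2.

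Of all genes, 0.257% were higher and 94.7% lower relative to Adgre1. In the related lists, the genes that rose more than Adgre1 were Clec4n of the 16 other macrophage genes (1.16 ± 0.40 SE, limma adjusted p = 0.00783), Clec4e of 11 classical monocyte genes (1.25 ± 0.51, limma adjusted p = 0.022), Cx3cr1 of 10 nonclassical genes (1.21 ± 0.39, limma adjusted p = 0.00512) and Ccl2 of 9 ligands (1.04 ± 0.46, limma adjusted p = 0.0323). At an adjusted or unadjusted p, 0 of 12 pan-leukocyte genes did. Those lower relative to Adgre1 were 4 of the 16 other macrophage genes, 11 of 15 transcription factor genes, 5 of 11 classical and 4 of 10 nonclassical monocyte genes, 4 of 9 ligands and 1 of 12 pan-leukocyte genes. Csf1r, the receptor that keeps macrophages alive, rose less than Adgre1 (-0.65 ± 0.29 SE, limma adjusted p = 0.0333); it was chosen after its value was seen.

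**Figure D4:**
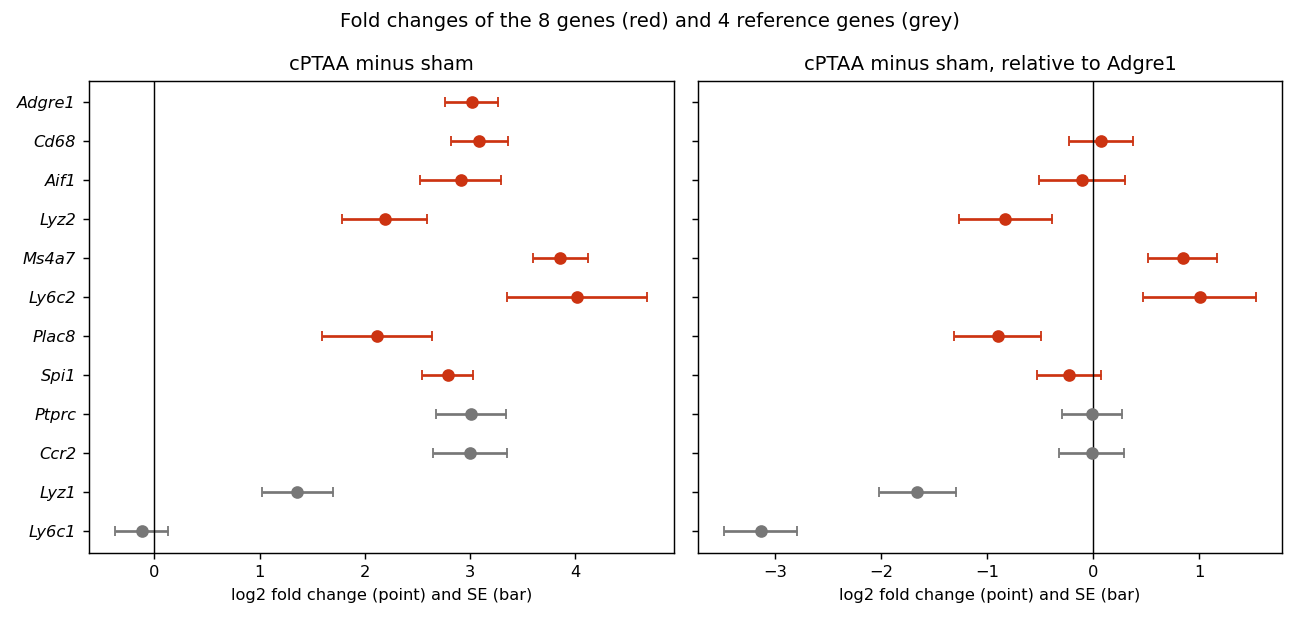
Log2 fold change of cPTAA minus sham (points) with its SE (bars) for the 8 genes (red) and 4 reference genes (grey), on the left for the level itself and on the right relative to Adgre1 in the same library. On the left, all red points lie right of 0 between 2.12 and 4.02; on the right, Ms4a7 (0.84) and Ly6c2 (1.003) lie above 0 and Plac8 (-0.90) and Lyz2 (-0.83) below it. Without sham 8 the difference of Lyz2 from Adgre1 was -0.31.

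Levels per kilobase, the normalised read count divided by the length of the longest transcript, allow a rough comparison of the genes with each other. It is limited by the low long transcripts in cPTAA 6 and 9. The uncertain split of reads between Ly6c2 and Ly6c1 and between Lyz2 and Lyz1 limits it as well. In cPTAA, Lyz2 stood at 18590 ± 3541 per kilobase (SD, n = 7), above the other 7 genes in every library. It was followed by Cd68 at 1347 ± 472, Plac8 at 851 ± 543, Ly6c2 at 779 ± 937, Adgre1 at 745 ± 197, Ms4a7 at 581 ± 186, Aif1 at 457 ± 271 and Spi1 at 413 ± 108. From Cd68 to Spi1, the mean ± SD of each gene overlapped that of its neighbour in the order, with no test made. Library by library, Cd68 exceeded Plac8, Plac8 exceeded Ly6c2 and Ms4a7 exceeded Aif1 in 6 of 7, cPTAA 9 being the exception each time. Adgre1 exceeded Ms4a7 in 5 of 7, Aif1 exceeded Spi1 in 3 and Ly6c2 exceeded Adgre1 in 2, so the last 2 orders held in a minority of libraries. The order in sham was Lyz2 (5540 ± 5793 per kilobase, SD, n = 5), Plac8 (174 ± 82.3), Cd68 (156 ± 56.1), Adgre1 (94.4 ± 35.6), Spi1 (59.7 ± 17.6), Aif1 (53.5 ± 19.0), Ms4a7 (39.4 ± 13.1) and Ly6c2 (33.6 ± 21.7). The fourth place of Ly6c2 in cPTAA rested on cPTAA 9, without which its mean was 450.0 per kilobase and the sixth of the 8.

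The genes whose profiles over the 12 libraries were most like each of the 8 were found by the root-mean-square difference of centred log2 levels among 12666 genes. Adgre1 was matched most closely by Nckap1l (0.15), which encodes the leukocyte actin regulator HEM1, Cd53 (0.19), a leukocyte tetraspanin, and Myo1f (0.20), a leukocyte myosin. For Spi1 they were Fcgr3 (0.21), an Fc receptor gene, Pld4 (0.22) and Ncf1 (0.22), a subunit of the phagocyte oxidase. Cd68 ran closest to C3ar1 (0.20) and Cd53 (0.28). Aif1 ran closest to Fcer1g (0.18), the signalling chain of Fc receptors, and then to Tnfaip8l2 (0.31) and Slamf9 (0.33). Ms4a7 was nearest to Trem2 (0.31), the lipid-sensing receptor of macrophages, Lat2 (0.33) and Scimp (0.37). Lyz2 was nearest to Tmem176a (0.25) and Tmem176b (0.26), a pair of neighbouring membrane protein genes, and to Rps6ka1 (0.36).

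Ly6c2 had no such close partner. The nearest to it were Ms4a4c (0.64), a monocyte gene induced by interferon, Slamf8 (0.65) and Fcgr4 (0.66), the Fc receptor of nonclassical monocytes. Plac8 was nearest to Oas1g (0.35), an interferon-induced antiviral gene, then Cd40 (0.47) and Il18bp (0.51). Within the 8, the closest pair was Adgre1 with Spi1 (0.30) and the most distant Ly6c2 with Lyz2 (1.63). Ly6c2 and Plac8, both monocyte genes, differed by 1.08, and each was closer to Aif1 (0.88 and 0.60). These distances take in the size of the rise, with log2 fold changes of 4.02 for Ly6c2, 2.91 for Aif1 and 2.12 for Plac8. They also take in single high values. Lyz2 was 20798 in sham 8, against 2234 to 5095 in the other sham libraries. Ly6c2 was 2263 in cPTAA 9, against 105 to 941 in the other cPTAA libraries. The part of these values in the distance of 1.63 was not tested. Within cPTAA, Ly6c2, Plac8 and Aif1 were all highest in cPTAA 2, 6 and 9 and lowest in cPTAA 7. All these values come from libraries that share the difference between cPTAA and sham.

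Markers of other cells that could carry these transcripts also moved. Of 7 tested neutrophil markers 1 rose, Csf3r, the receptor of the growth factor G-CSF (238 ± 107 against 50.4 ± 20.5; SD, n = 7 and 5; log2 fold change 2.20, limma adjusted p = 0.000344), a gene that monocytes also express. S100a8 (77.6 ± 71.1 against 49.8 ± 29.1) and S100a9 (107 ± 115 against 76.3 ± 35.7) did not pass (limma adjusted p = 0.905 and 0.855). Ly6g, Mpo and Camp were too low to be tested. The summed level of the 10 neutrophil markers was 135 to 998 in cPTAA and 135 to 355 in sham. B cell markers rose in 8 of 8 and T and NK cell markers in 9 of 10. In the model with brown adipocyte score 0 of each rose, against 347 of 21415 genes in all. Of 8 dendritic cell markers 3 rose and 1 fell. The summed levels of B cell, T and NK cell, and dendritic cell markers were 238 to 3945, 382 to 1155 and 2446 to 6816 in cPTAA. In sham they were 22.1 to 142, 30.3 to 242 and 1277 to 4234. Smooth muscle markers fell in 4 of 8 and endothelial markers in 4 of 8, while 5 of 8 fibroblast markers rose. The part of these cell types in the levels of the 8 genes was not tested.

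Of 11 relatives of the 8 genes, 8 rose, with a median log2 fold change of 1.79; the 3 with the smallest p were Ms4a6d (935 ± 325 against 95.7 ± 41.7; SD, n = 7 and 5; log2 fold change 3.28), Ms4a6c (469 ± 166 against 73.0 ± 38.7; 2.75) and Ms4a6b (923 ± 343 against 163 ± 83.8; 2.52), which lie in the gene cluster of Ms4a7. The 3 that did not pass were Ly6c1, Adgre5, the leukocyte gene for CD97 (1808 ± 345 against 1853 ± 179; log2 fold change -0.05, limma adjusted p = 0.827), and Aif1l, the relative of Aif1 (49.8 ± 14.9 against 53.4 ± 15.9; -0.09, limma adjusted p = 0.849). In the model with brown adipocyte score 1 of the 11 rose, against 347 of 21415 genes in all.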

How the data were processed

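Per the labels' protocols, poly-A RNA of frozen aortic tissue was captured on oligo-dT beads, with random hexamers for the first strand. The tools named in the submitters' processing notes are HISAT2 2.0.5, StringTie and featureCounts 1.5.0-p3, and the build is GRCm39; settings, strand handling and scaling are not given in the sources used here. The deposited signal per gene was a whole number of reads times 1 factor per library (100% of values whole within 0.02 reads), so it is called a normalised read count.

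Groups and library numbers came from the sample titles. Genes with values of at least 1 in 5 or more libraries (21415) were fitted with limma 3.58.1 in R 4.3.3, with its mean-variance trend, on log2(value + 1). Calls used a Benjamini-Hochberg adjusted p under 0.05; this scale understates the change of low genes. Changes beyond 2-fold used limma's treat. Relative changes repeated the fit after subtracting Ptprc or Adgre1 in each library, so the spread of that gene entered the error of every gene. They were not repeated with edgeR, DESeq2, voom, other scalings or the transcript length covariate. On recovered reads, the quasi-likelihood test of edgeR 4.0.16 called 2622 genes higher and 2261 lower. DESeq2 1.42.0, voom, other scalings, filters and pseudocounts, a brown adipocyte covariate and leaving out each library were alternatives; those without several libraries and with the transcript length covariate were chosen after seeing the data. Only the main limma fit was tested on simulated data, with spread set alike for all genes and no library that stood apart.

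The 8 genes and the gene lists were chosen with earlier results of these data known; the airway, cardiomyocyte and interferon lists were added after seeing values. Named are the 8 genes, Ptprc, Ccr2, Ly6c1 and Lyz1, the 3 genes of each list with the smallest p, list members that moved in a direction taken by 5 or fewer, and the 3 genes most like each of the 8 (1 of those for Cd68 is not reported here); other names were chosen after their values were seen. Lengths and transcript identities came from GENCODE M21.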

Additional observations from a re-analysis of the deposited data

Results flagged for a closer look

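The level of Lyz2 in sham 8 was 20798, against 2234 to 5095 in the other 4 sham libraries; its gap to the nearest of them was 0.846 of the group's range, above Dixon's limit of 0.71 for 5 samples. Ly6c2 in cPTAA 9 was 2263, against 105 to 941 in the other 6 cPTAA libraries, a gap of 0.613 of the range and above the limit of 0.568 for 7 samples. The limits were applied to values without logs and assume normally distributed values, whereas the other tests used log2 values. The log2 scale was not examined with these limits. For independent groups of normally distributed values chance flags about 1 in 20. Here 2 of 18 groups examined were flagged, and these groups share the same libraries. Sham 8 carried the airway markers and cPTAA 9 the highest cardiomyocyte markers and the lowest level of long transcripts, whose part in these values was not tested.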

How the results depend on the processing

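The rises of Adgre1, Cd68, Aif1, Ms4a7, Ly6c2 and Spi1 stayed past the threshold in all 25 alternatives, and those of Lyz2 and Plac8 in 24. No paired analysis was possible because the groups share no replicate numbers. The exception was the brown adipocyte score as a covariate, where the log2 fold changes were 1.29 for Lyz2 (limma adjusted p = 0.273) and 2.23 for Plac8 (limma adjusted p = 0.194), 347 genes were higher and 127 lower, and 0 genes, 0 of the 8 among them, passed the 2-fold test in either direction. Genes higher by 2-fold numbered 624, and 393 with a pseudocount of 10. Genes lower by 2-fold numbered 91, but 55 with a pseudocount of 10, 427 without cPTAA 6, 7 and 9 and sham 8, 207 without cPTAA 6 and 9, 208 with the length covariate, 213 with edgeR, 332 with voom, and 49 to 205 without single libraries. Scaling to library totals alone shifted the median log2 fold change of all genes by 0.11 and the share of calls that were higher from 53.7% to 64.7%; relative to that median the 8 genes stood at 2.18 to 4.08.
Relative to Adgre1, 55 genes were higher, and 126 or 22 with a pseudocount of 0.1 or 10; relative to Ptprc, 47, and 118 or 21 with these pseudocounts and 80 against the mean of the pan-leukocyte genes. Values that changed sign had not passed in the first place. Relative to Adgre1 they were Aif1 with the brown covariate (1.004) and Cd68 without cPTAA 6, 7 and 9 and sham 8 (-0.18) or without cPTAA 6 and 9 (-0.12). Relative to Ptprc they were Adgre1 (-0.032 and -0.041) and Cd68 (-0.21 and -0.16) in these 2 settings, and Aif1 (1.24) and Spi1 (0.019) with the brown covariate. Aif1 was at 0.045 against the pan-leukocyte mean. Leaving out single libraries gave, relative to Adgre1, -0.34 to 0.036 for Aif1 and -0.011 to 0.18 for Cd68, and relative to Ptprc, -0.10 to 0.078 for Adgre1, -0.34 to 0.074 for Aif1 and -0.035 to 0.25 for Cd68. Without cPTAA 6, 7 and 9 and sham 8 the counts that rose in the other macrophage, pan-leukocyte, classical and nonclassical monocyte and ligand lists were 15, 12, 8, 8 and 8. In that setting 6569 genes were called in all, 53.0% of them higher. Apart from the settings' own construction, the causes were not tested. Counting error is largest for Ly6c2 in sham, with as few as 7 reads.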
